A study of Mus musculus with 2 samples.

Results

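Osteopontin, encoded by Spp1, and 6 integrin chains that bind it were followed across the stromal cells of mouse fat. The set comprises 7 of the 29417 genes in the transcriptome table: the ligand Spp1, the alpha chains Itgav, Itga4 and Itga9, and the beta chains Itgb1, Itgb3 and Itgb5. The genes were taken by name, as the ligand and its main integrin receptors, and each was present in the table. Cells came from the stromal vascular fraction of epididymal white fat, which is what remains after digestion and removal of adipocytes. The donors were male wild-type C57BL/6J mice in 3 feeding groups: standard diet over 16 weeks, and high-fat feeding over 8 weeks or 16 weeks. Each suspension was marked with a hashtag antibody, a DNA-barcoded antibody that allows pooled cells to be separated again, and the suspensions were run as 1 pool on a BD Rhapsody instrument with TAS-Seq amplification. The number of mice behind each suspension is not given in the sources used here, and no source ties a hashtag to a diet, so the 9 hashtag populations are named by their tag (A0301 to A0310) and diets were not compared.

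Osteopontin is a secreted, heavily phosphorylated matrix protein and cytokine that macrophages release in inflamed tissue, including obese fat. Integrins are surface receptors made of an alpha and a beta chain; alpha-v pairs with beta-1, beta-3 or beta-5, and alpha-4 and alpha-9 pair with beta-1. The alpha-v receptors read an arginine-glycine-aspartate motif in osteopontin, whereas alpha-4 and alpha-9 receptors read an adjoining cryptic site that is uncovered when thrombin cuts the protein. Binding anchors cells to matrix and starts adhesion signalling.

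Spp1 lies on the plus strand of GRCm38 chromosome 5, from 104435118 to 104441050. Its start overlaps Gm42793, an uncharacterised entry on the same strand from 104435121 to 104436372; no source used here says how reads shared by both were counted. The following 60 coding bases, chr5:104439466-104439525 in exon 6 of 7, are shown because both receptor sites sit side by side in them; capitals mark the 9 bases of the arginine-glycine-aspartate codons, and the 21 bases after the capitals encode the cryptic site.
Spp1: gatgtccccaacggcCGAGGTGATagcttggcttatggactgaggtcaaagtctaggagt
This stretch is present in 5 of the 7 coding Spp1 transcripts of the GENCODE annotation that start at an annotated start codon. The deposited counts are per gene, so transcripts with and without it, and cleaved or uncleaved protein, could not be told apart.

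After quality filtering, 10286 cells with a median of 36709 reads remained. They formed 25 clusters, of which 21 were assigned to 13 cell classes by marker genes; the 7 genes themselves and their partner lists took no part in clustering. Macrophage-like cells numbered 3073 and each of their 5 clusters carried at least 7 of 10 macrophage markers. Fibroblast-like cells numbered 2592 in 4 clusters with at least 8 of 9 fibroblast markers. The 4 unnamed clusters held 16.6% of the cells. Levels are given as CPM, the reads of a gene scaled to a common total of reads of all genes in the cells of a class. The cells come from 1 pooled library whose hashtag populations belong to no labelled group, so no test was run and values are given per population instead; the 95% intervals, exact Poisson for levels and exact binomial for shares of cells, cover counting error only and are too narrow because several reads can come from 1 molecule. Levels are compared within a gene and never between genes, since they are not corrected for gene length.

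Spp1 was chiefly a macrophage transcript. Its level in macrophage-like cells was 327 CPM (95% interval 325 to 329), against 3.12 CPM (2.85 to 3.41) in fibroblast-like cells and 1.88 CPM in endothelial-like cells. Macrophage-like cells held 91.8% of all Spp1 reads among the kept cells. A further 5.86% lay in unnamed cluster 5, whose 632 cells carried 8 of 10 macrophage markers but were led by haemoglobin genes, and where Spp1 stood at 268 CPM. T cell-like cells followed at 64.7 CPM, from 16 of 488 cells, and conventional dendritic-like cells at 50.1 CPM, from 24 of 397. The 3 cells with most Spp1 held 53.5% and 39.7% of the Spp1 reads of these classes. No Spp1 read was listed in mural-like, B cell-like or mature dendritic-like cells. By counting error alone, a count of 0 (3 reads of the total) allows up to 0.351, 0.957 and 2.95 CPM. These limits are too tight for Spp1, whose lowest value above 0 is 8 reads. Up to 7 reads may be missing in each cell listed at 0. The 12 neutrophil-like cells gave 121 CPM from 1 cell with 25 reads, so that value describes a single cell.

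The Spp1 ranges over hashtag populations with at least 20 cells of a class show how firm this order is. In macrophage-like cells the 9 populations ran from 87.1 to 573 CPM with a median of 183 CPM. In T cell-like cells they ran from 0 to 101 CPM and in conventional dendritic-like cells from 0 to 171 CPM, so both ranges touched the macrophage range. The macrophage and fibroblast ranges did not overlap, as the highest fibroblast-like value was 23.8 CPM. From T cell-like cells downward, neighbouring classes in the Spp1 order overlapped throughout.

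**Figure D1:**
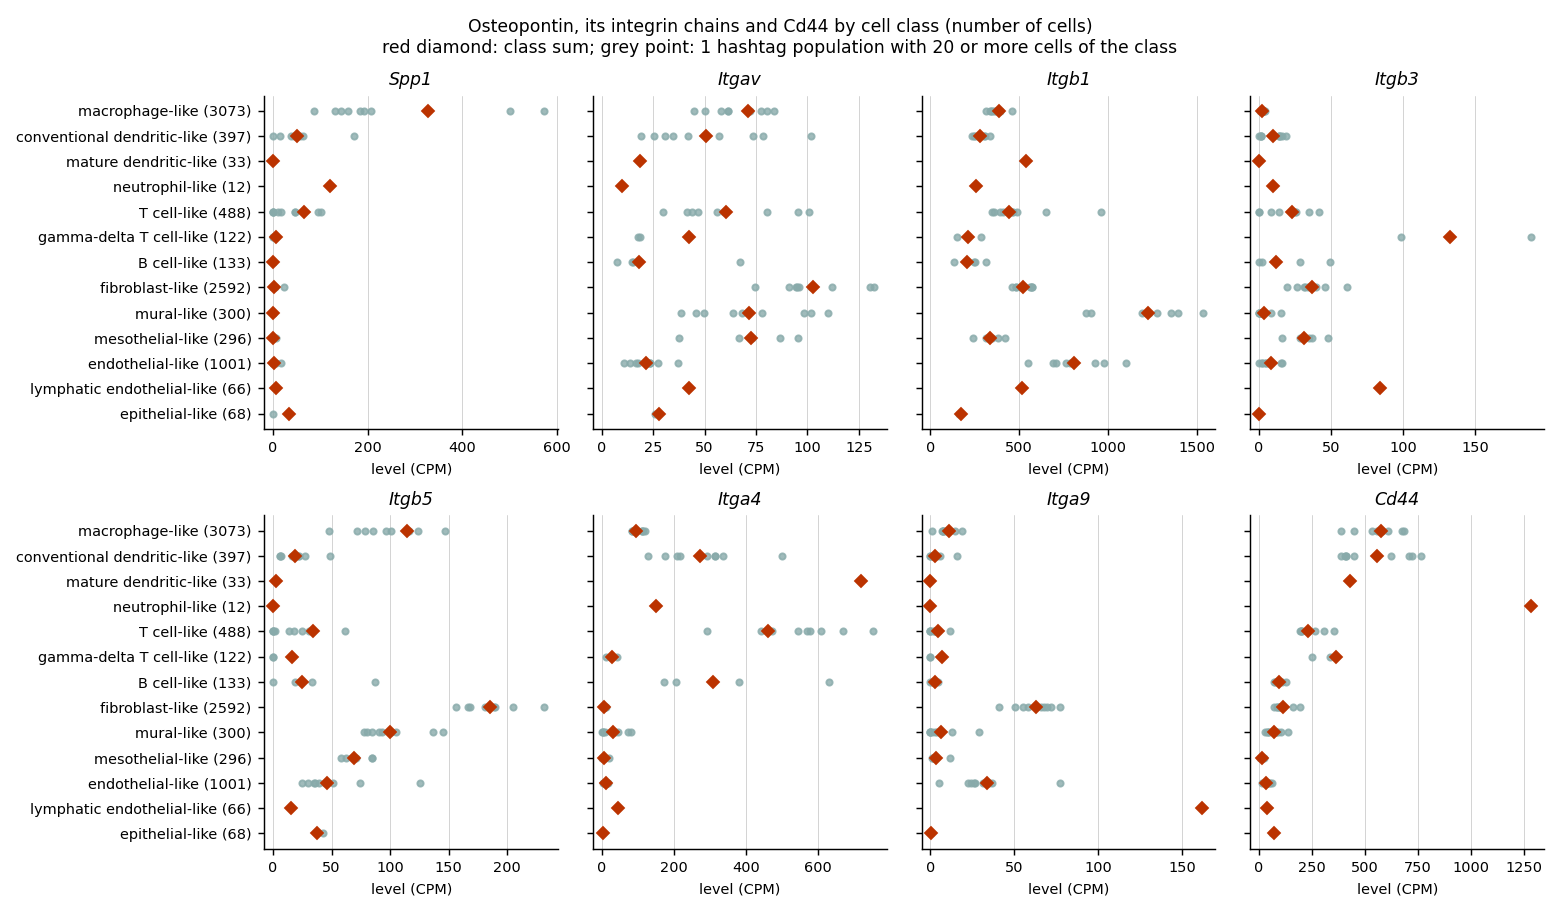
Level (CPM, linear axis) of Spp1, the 6 integrin chains and Cd44 in the 13 cell classes, with cell numbers in brackets. Red diamonds are class sums and grey points are hashtag populations with 20 or more cells of the class; Spp1 peaks in macrophage-like cells at 327 CPM, Itga4 in immune classes, Itga9 in lymphatic endothelial-like cells at 162 CPM and Itgb1 in mural-like cells at 1223 CPM.

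Spp1 was carried by a minority of macrophages and very unevenly. Of the 3073 macrophage-like cells, 778 (25.3%, 23.8 to 26.9) had Spp1 reads. When each cell was thinned to 5000 reads, the share was 18.8% in macrophage-like cells, 3.28% in T cell-like cells and 0.463% in fibroblast-like cells, which serve as the background for free RNA; median depths were 74063, 15450 and 54041 reads before thinning. The 31 cells with most Spp1, 1% of the class, held 46.6% of its Spp1 reads, and the top 10% held 88.6%. A cell with Spp1 had a median of 37 reads, 17 cells had at least 1000 reads, and the highest had 6264. The lowest Spp1 value above 0 in the table is 8 reads, so a cell listed at 0 may have held up to 7. Thinning does not restore such reads, so it does not remove the effect of depth on the share of cells with Spp1.

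Itgav, the alpha-v chain, was, among the named classes, most abundant in fibroblast-like cells. It lies on the plus strand of chromosome 2, from 83724397 to 83806916. Its level was 102 CPM in fibroblast-like cells (9 populations, 74.7 to 132 CPM), 72.4 CPM in mesothelial-like, 71.8 CPM in mural-like and 71.3 CPM in macrophage-like cells (45.0 to 83.8 CPM). The ranges of these neighbours overlapped, so the order among them is not firm. Endothelial-like cells were low at 21.4 CPM and B cell-like cells at 18.2 CPM.

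Itgb5, the beta-5 chain that joins alpha-v alone, had a firmer order. It lies on the plus strand of chromosome 16, from 33829665 to 33949338. Fibroblast-like cells led with 186 CPM (156 to 232 CPM over 9 populations), and macrophage-like cells followed with 114 CPM (48.3 to 147 CPM). The fibroblast and macrophage ranges did not overlap. Mural-like cells were next at 99.97 CPM, while conventional dendritic-like cells were at 18.9 CPM and mature dendritic-like cells at 2.95 CPM.

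Itgb3, the beta-3 chain of the vitronectin receptor, was nearly missing from macrophages. It lies on the plus strand of chromosome 11, from 104608000 to 104670476. Macrophage-like cells had 1.89 CPM (0.674 to 4.39 CPM over the 9 populations), against 36.6 CPM in fibroblast-like cells (19.4 to 60.8 CPM). The level was 133 CPM in gamma-delta T cell-like cells, 83.9 CPM in the 66 lymphatic endothelial-like cells and 31.4 CPM in mesothelial-like cells. Gamma-delta T cell-like cells, the interleukin-17-producing lymphocytes of fat, had 99.0 and 189 CPM in the 2 populations with at least 20 of them, both above the fibroblast range.

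Itga4, the alpha-4 chain known for the lymphocyte receptor of Vcam1, marked immune classes. It lies on the plus strand of chromosome 2, from 79255426 to 79333123. The level was 718 CPM in the 33 mature dendritic-like cells, 460 CPM in T cell-like, 307.5 CPM in B cell-like, 272 CPM in conventional dendritic-like and 94.5 CPM in macrophage-like cells. Fibroblast-like cells had 7.54 CPM. T cell-like, B cell-like and conventional dendritic-like ranges overlapped, whereas the macrophage range (85.1 to 120 CPM) lay below the conventional dendritic range (128 to 501 CPM) and above the mural range (1.75 to 80.6 CPM). Gamma-delta T cell-like cells stood apart from the other lymphocytes at 28.3 CPM. The 3' end of Itga4 overlaps Cerkl on the opposite strand; whether counting used the strand is not given in the sources used here.

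Itga9, the alpha-9 chain, known for its part in lymphatic valves, was, among the named classes, highest in lymphatic endothelial-like cells. It lies on the plus strand of chromosome 9, from 118606690 to 118901003, and overlaps the antisense gene Gm2415 at its end. Its level was 162 CPM in lymphatic endothelial-like cells, 63.2 CPM in fibroblast-like cells (40.7 to 77.2 CPM), 33.5 CPM in endothelial-like cells and 11.4 CPM in macrophage-like cells (1.15 to 18.7 CPM). The fibroblast and macrophage ranges did not overlap. It was not detected in the 33 mature dendritic-like and 12 neutrophil-like cells, where a count of 0 allows up to 2.95 and 14.6 CPM.

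Itgb1, the common beta-1 partner, was present in every class. It lies on the plus strand of chromosome 8, from 128685654 to 128733200. Mural-like cells, the contractile cells of vessels, had 1223 CPM (873 to 1533 CPM over 9 populations) and endothelial-like cells had 808 CPM (551 to 1098 CPM). The level was 522 CPM in fibroblast-like cells (457 to 574 CPM) and 389 CPM in macrophage-like cells (314.5 to 458 CPM). Each of these neighbouring ranges overlapped the next. The lowest class was epithelial-like with 172 CPM.

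The chains a cell needs for a receptor were also looked for together in single cells, as shares of cells with at least 6 reads of both. Fibroblast-like cells had Itgav with Itgb1 in 29.4% of cells (27.6 to 31.2), Itgav with Itgb5 in 21.1%, Itga9 with Itgb1 in 19.7% and Itgav with Itgb3 in 7.18%. In macrophage-like cells the most frequent pair was Itga4 with Itgb1 at 32.0% (30.4 to 33.7), followed by Itgav with Itgb1 at 27.7% and Itgav with Itgb5 at 18.2%. Itgav with Itgb3 was seen in 13 of 3073 macrophage-like cells (0.423%, 0.225 to 0.722).

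After thinning to 5000 reads, macrophage-like cells still ranked above fibroblast-like cells for Itga4 with Itgb1, and below them for the other pairs listed here. Itga4 with Itgb1 then stood at 18.3% of macrophage-like cells, 24.6% of T cell-like cells and 2.28% of fibroblast-like cells. Itga9 with Itgb1 stood at 11.96% in fibroblast-like, 2.96% in macrophage-like and 18.2% in lymphatic endothelial-like cells. Itgav with Itgb5 stood at 11.3% of fibroblast-like cells and 5.92% of macrophage-like cells, and Itgav with Itgb1 at 19.8% and 14.1%. The order against T cell-like and lymphatic endothelial-like cells changed with thinning. Before it, Itga4 with Itgb1 was less frequent in T cell-like than in macrophage-like cells, at 20.1% against 32.0%. Itga9 with Itgb1 was then at 19.7% in lymphatic endothelial-like cells, level with the 19.7% of fibroblast-like cells. RNA of both chains in 1 cell does not show that the receptor is on its surface.

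Set directly against each other, macrophage-like and fibroblast-like cells differed in some of the 7 genes and were within 2-fold in the others. Of the 7 genes, 2 were at least 2-fold higher in macrophage-like cells: Spp1 by 105-fold and Itga4 by 12.5-fold. Another 2 passed the limit in favour of fibroblast-like cells: Itgb3 by 19.4-fold and Itga9 by 5.54-fold. Itgb5 at 1.62-fold, Itgav at 1.44-fold and Itgb1 at 1.34-fold leaned toward fibroblast-like cells within the 2-fold limit. The rule asks for a ratio of at least 2 after adding 1 CPM, and for 20 CPM or more in either class. By it, 17.5% of the 7773 genes tested were higher in macrophage-like and 21.7% in fibroblast-like cells. Whether 2 of 7 genes in each direction exceeds these shares was not tested. The median log2 ratio of macrophage-like to fibroblast-like cells was -0.52 over the 7 genes and -0.0018 over all genes tested.

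These directions held within the hashtag populations. For Spp1 and Itga4, macrophage-like cells had the higher level in 9 of 9 populations, and Itgb1, Itgb3, Itgb5 and Itga9 were higher in fibroblast-like cells in 9 of 9. Itgav was higher in fibroblast-like cells in 8 of 9. The size of the Spp1 ratio is uncertain because of its missing low values: with 7 reads put in place of each 0, the most the gap can hide, it was 3.23-fold. The integrin chains have values down to 1 read and their ratios do not change under that setting. The Spp1 ratio without population A0310 was 191-fold, and A0310 gave 278 of the 488 Spp1 reads in fibroblast-like cells.

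Against all other kept cells, Spp1 alone of the 7 was at least 2-fold higher in macrophage-like cells (background 11.4% of 7903 genes), at 327 against 30.1 CPM. Itgb3, at 1.89 against 28.3 CPM, and Itga9, at 11.4 against 40.8 CPM, were lower (background 20.5%). Itga4 was within the limit, at 94.5 against 52.9 CPM.

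Macrophage-like cells were split again into 13 states, named here by leading genes. Spp1 stood at 546 CPM in a state led by Serpinb9b and Uchl1 (264 cells), where 4 of 5 antioxidant markers were 2-fold higher than in the other macrophage-like cells, and at 532 CPM in a state led by Cpe and Hmga2 (334 cells). In these states 51.9% and 45.2% of cells had Spp1, and without the 5 cells with most Spp1 the levels were 401 and 263.5 CPM. States led by replication genes Mcm5 and Mcm6 (109 cells), by the proliferation marker Mki67 (290 cells) and by F7 and Cd200 (474 cells) had 376, 369 and 254 CPM, with Spp1 in 45.9%, 36.2% and 39.2% of cells, and 183, 183 and 182 CPM without their 5 top cells. The state led by F7 carried 3 of 8 lipid-associated markers and the Mki67 state 6 of 6 cycling markers.

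Spp1 was found in few cells of the states with resident or recruited-cell markers. The state led by Lyve1 and Rnase2a (212 cells), with 7 of 7 resident markers higher, had Spp1 in 3.30% of cells (1.34 to 6.68). The state led by Plbd1 and Cd226 (392 cells), with 4 of 5 recruited-cell and 4 of 4 MHC class II markers higher, had Spp1 in 3.83% (2.16 to 6.23) and a level of 15.8 CPM. Of the Lyve1 state's 112 CPM, 77.7% of reads came from 1 cell, and without its 5 highest cells the level was 3.29 CPM. The state led by Cxcl9, with 7 of 7 interferon markers higher, had 83.3 CPM, of which 65.8% came from 1 cell, and Spp1 in 10.2% of cells. Depth moved with these shares, from a median of 22244 reads per cell in the Lyve1 state to 139892 in the Serpinb9b state. At 5000 reads per cell the shares were 2.83% and 42.0%, but thinning does not restore missing Spp1 values under 8 reads. The effect of depth is therefore not removed. With 7 reads in place of each 0, Spp1 was 0.908 times the level of the other macrophage-like cells in the Lyve1 state. It was 1.61 times that level in the Serpinb9b state. The Lyve1 state also had 7 of 8 dissociation-response genes higher, and a state led by Ms4a6b and Selenop had 6 of 8. The part of these genes in the Spp1 and integrin levels of both states was not tested.

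By the 2-fold rule, Spp1 was lower than in the other macrophage-like cells in 7 of 13 states; summed over the states, 5.01% of tested genes were lower and 4.31% higher. They were those led by Plbd1 (background 9.9% of genes lower), Lyve1 (10.6%), Cxcl9 (4.84%), Ms4a6b (3.79%), Gm23935 (4.02%), Hspa1a (9.97%) and Aqp1 (2.69%). It was higher in 1 state (background 12.1%), led by Sparc and Fstl1, with 9 of 9 fibroblast markers higher; its 57 cells had 1062 CPM, of which 91.6% came from the 1 cell with 6264 reads, and 20.5 CPM without the 5 highest cells. The Aqp1 state carried 8 of 8 endothelial markers. Without these mixed states no state was called higher, whereas with equal weight for each cell 3 states were called higher, those led by Serpinb9b and Cpe among them. With the missing low values filled, the lower call remained in 3 states, led by Plbd1, Cxcl9 and Aqp1.

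**Figure D2:**
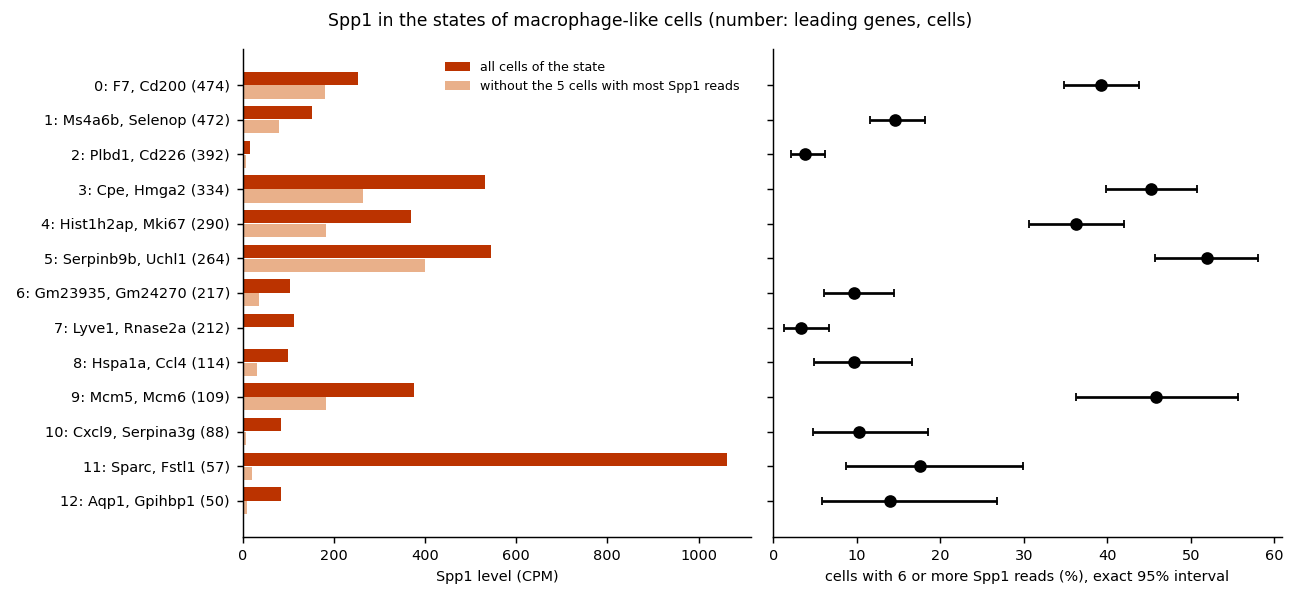
Left, Spp1 level (CPM) in the 13 macrophage states with all cells (dark) and without the 5 cells with most Spp1 reads (light). Right, percent of cells with at least 6 Spp1 reads and exact 95% intervals; shares run from 3.30% in the Lyve1 state to 51.9% in the Serpinb9b state, and the tallest bar, 1062 CPM in the Sparc state, drops to 20.5 CPM without 5 cells.

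Integrin chain levels also differed between the macrophage states, but calls were few. Summed over the states, 5.01% of tested genes were lower and 4.31% higher. Itgb5 was called lower in the Plbd1 state at 22.8 CPM (background 9.9% of genes lower) and in the Lyve1 state at 48.8 CPM (10.6%). It reached 210 CPM in the state led by Gm23935 and 187 CPM in the state led by Ms4a6b and Selenop, with no call in either. The Gm23935 state had none of the state markers higher and a median of 36087 reads. Its leading genes are also among those of unnamed cluster 15. Itga4 was 166 CPM in the Plbd1 state, 155 CPM in the Gm23935 state, 153 CPM in the Ms4a6b state and 148 CPM in the Cxcl9 state, against 64.3 CPM in the F7 state. Itga4 was not called higher in any of these 4 states. Each of the 4 had Spp1 called lower, and with gaps filled that call remained in the Plbd1 and Cxcl9 states. Spp1 was also called lower in the Lyve1, Hspa1a and Aqp1 states, where Itga4 was 84.9, 74.2 and 69.8 CPM. The 4 states differed from each other in Itgb5. The Itgb5 difference between the Plbd1 and Ms4a6b states held in single populations. Itgb5 was 2.06 to 39.0 CPM over 6 populations in the Plbd1 state, and 164 to 228 CPM over 6 in the Ms4a6b state.

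The other chains gave few calls. Itgav was 108 CPM in the Cpe state and was called lower in the Lyve1 state at 19.2 CPM (background 10.6%). Itga9 was called higher in the Lyve1 state at 26.3 CPM (background 7.79%), the Ms4a6b state at 21.8 CPM (2.99%) and the Sparc state at 24.6 CPM (12.1%). Itgb1 ranged from 241 CPM in the Lyve1 state to 488 CPM in the Cpe state with no call. In the Sparc state Itgb3 was called higher at 22.4 CPM and Itga4 lower at 40.3 CPM (background 2.4%), beside the fibroblast markers named above; the part of mixed cells in these values was not tested.

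**Figure D3:**
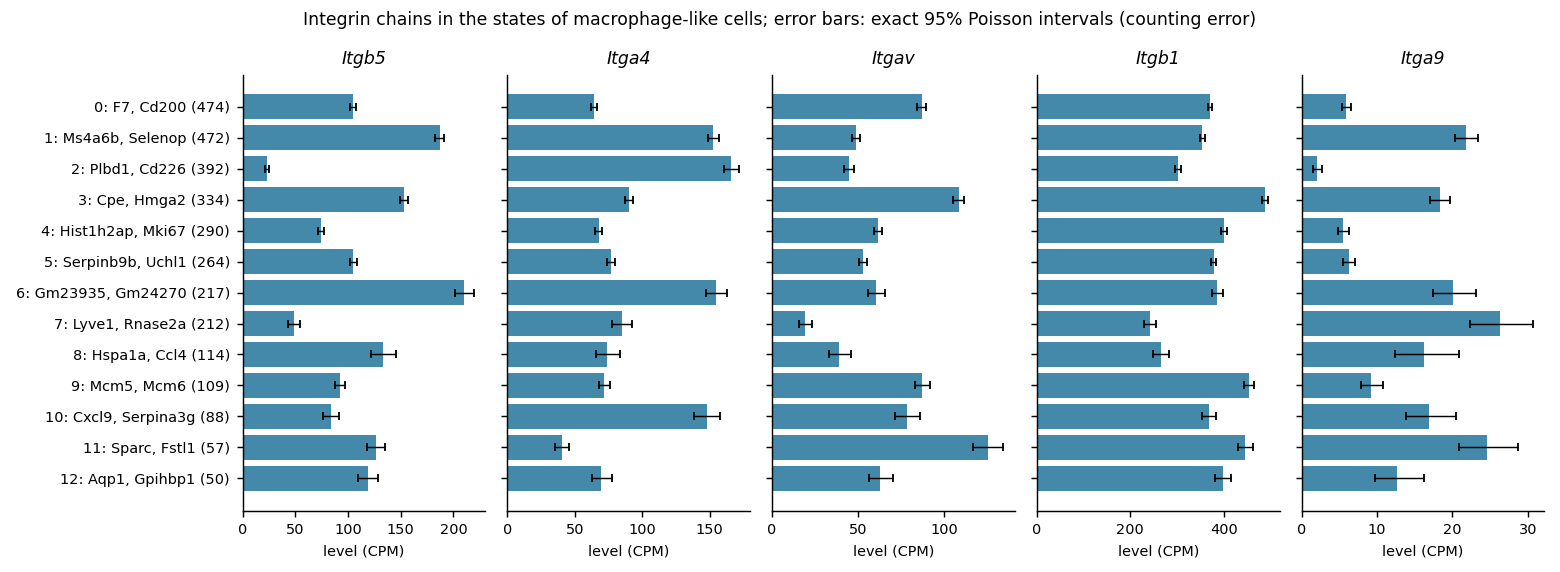
Level (CPM) of Itgb5, Itga4, Itgav, Itgb1 and Itga9 in the 13 macrophage states, with exact 95% Poisson intervals for counting error. Itgb5 runs from 22.8 CPM in the Plbd1 state to 210 CPM in the Gm23935 state, and Itga4 from 40.3 CPM in the Sparc state to 166 CPM in the Plbd1 state.

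Within macrophage-like cells, cells with Spp1 more often held several receptor chains. At 5000 reads per cell, Itgb1 was found in 75.0% (71.2 to 78.4) of the 579 cells with Spp1 and in 63.5% (61.5 to 65.4) of the 2494 without. Itgav was found in 24.9% and 17.1%, Itgb5 in 35.9% and 27.4%, and Cd44 in 82.7% and 62.6%. Itga4 was at 26.8% and 26.6%, Itga9 at 3.28% and 4.25%, and Itgb3 at 0.173% and 0.762%. In the 6 populations with at least 20 such cells, Itgav, Itgb1 and Cd44 were higher in cells with Spp1 in 6 of 6. Itgb5 was higher in 5 of 6, Itga4 in 3 of 6, and Itgb3 and Itga9 in 1 of 6 each. No share over all genes is given beside these counts. States differ in all of these genes, and their part in the difference was not tested. Spp1 values under 8 reads and Cd44 values under 7 were missing before thinning. Deeper cells were therefore more readily listed with either gene, and the part of depth was not tested.

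The hashtag populations differed in Spp1 among macrophage-like cells. The level was 130 CPM in A0301, 208 CPM in A0302, 87.1 CPM in A0303, 183 CPM in A0304, 144 CPM in A0305, 159 CPM in A0307, 193 CPM in A0308, 573 CPM in A0309 and 501 CPM in A0310. A0309 and A0310 stood above the other 7. In A0309, 18.0% of the Spp1 reads came from 1 of 611 cells, the cell of the Sparc state with 6264 reads. The shares of macrophage-like cells with Spp1 were 8.20%, 11.7% and 13.3% in A0301 to A0303, 21.6%, 14.9% and 23.0% in A0304, A0305 and A0307, and 20.6%, 31.9% and 40.7% in A0308 to A0310. In A0301, 84.8% of the Spp1 reads came from 1 of 61 cells, and in A0302 72.9% came from 1 of 60; without that cell the levels were 19.7 and 56.4 CPM. Macrophage depth also moved with the population, from a median of 42545 reads in A0303 to 105410 in A0310. Thinned to 5000 reads per cell, the shares ran from 3.28% in A0301 to 31.3% in A0310. Spp1 values under 8 reads were missing before thinning, so the effect of depth on these shares is not removed.

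**Figure D4:**
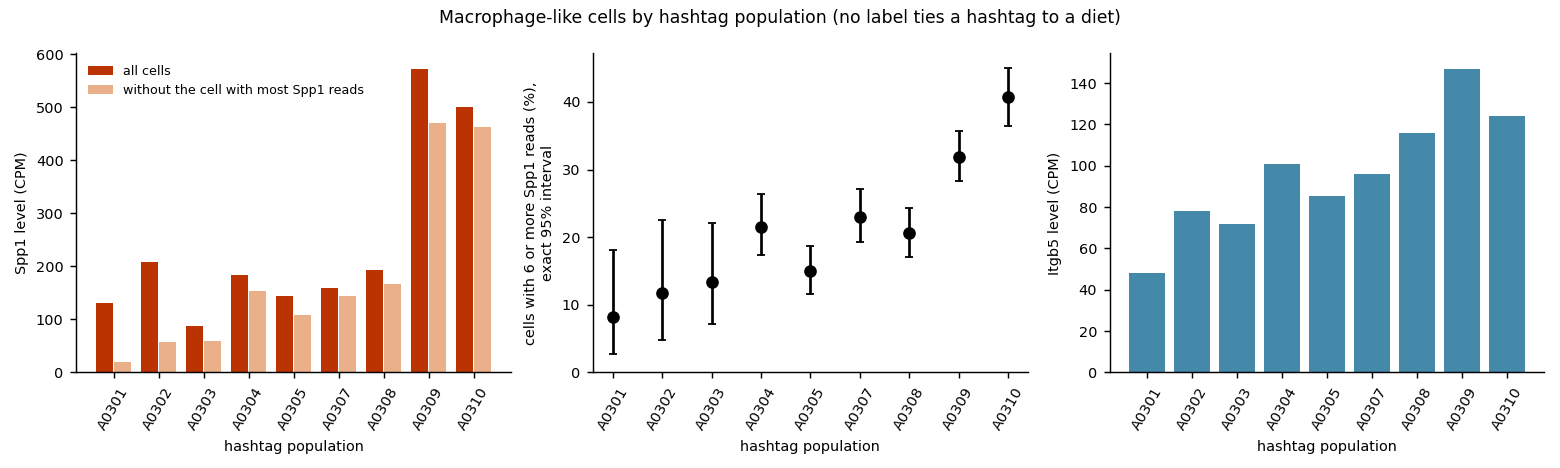
Macrophage-like cells of the 9 hashtag populations: Spp1 level (CPM) with all cells and without the cell with most Spp1 reads, percent of cells with at least 6 Spp1 reads with exact 95% intervals, and Itgb5 level (CPM). A0309 and A0310 are highest for Spp1 at 573 and 501 CPM, and Itgb5 runs from 48.3 CPM in A0301 to 147 CPM in A0309.

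The populations also held different macrophage states. The Plbd1 state made up 44.3% to 47.8% of macrophage-like cells in A0301 to A0303, 19.1% to 25.1% in A0304, A0305 and A0307, and 0.791% to 2.30% in A0308 to A0310. The Cpe state made up 18.6% in A0308 and 30.8% in A0309, and the Serpinb9b state 43.4% in A0310, where 226 of its 264 cells lay. Within the Cpe state Spp1 was 196 CPM in A0308, 795 CPM in A0309 and 460 CPM in A0310, and within the Mki67 state it ran from 29.5 CPM in A0304 to 950 CPM in A0310. The shares of cells with Spp1 were closer: 41.5%, 45.2% and 60.7% of the Cpe state in A0308, A0309 and A0310, and 15% to 47.8% of the Mki67 state over 6 populations. The 5 cells with most Spp1 held 50.5% of the reads in each of these states, so the levels inside a state rest on few cells.

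Among the chains in macrophage-like cells, Itgb1 and Itga4 varied least over the populations. Itgb5 ran from 48.3 CPM in A0301 to 147 CPM in A0309, Itgav from 45.0 CPM in A0302 to 83.8 CPM in A0309, and Itga9 from 1.15 CPM in A0302 to 18.7 CPM in A0309. Itgb1 ran from 314.5 to 458 CPM and Itga4 from 85.1 to 120 CPM. In fibroblast-like cells, A0307 was highest of the 9 for Itgb3, Itgb5, Itga9 and Itgb1, at 60.8, 232, 77.2 and 574 CPM, and A0310 was highest for Itgav at 132 CPM and lowest for Itga9 at 40.7 CPM.

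The chain that set fibroblast-like clusters apart was Itgb3. A cluster led by Mrgprg and Cd55 (868 cells), with the universal-fibroblast gene Pi16 among its leading genes, had 59.7 CPM of Itgb3 (57.7 to 61.8). A cluster led by Agt and C4b (698 cells) had 9.81 CPM (8.80 to 10.9). Clusters led by Nrep and Timp1 (561 cells) and by Mfap4 and Cilp (465 cells) lay between, at 35.9 and 27.0 CPM. Over the 9 hashtag populations Itgb3 was 32.9 to 101 CPM in the Mrgprg cluster and 0 to 17.8 CPM in the Agt cluster, with no overlap. Such separate ranges were not particular to Itgb3. Itgb1 was 540 to 666 CPM in the Nrep cluster and 279 to 474 CPM in the Agt cluster. Itgb5 was 167 to 329 CPM in the Mfap4 cluster and 98.5 to 158 CPM in the Agt cluster.

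Against the other fibroblast-like cells, Itgb3 was the 1 gene of the 7 called higher in the Mrgprg cluster (background 3.11% of genes higher, 4.69% lower) and the 1 called lower in the Agt cluster (3.17% lower, 2.53% higher). In the Nrep and Mfap4 clusters none of the 7 was called, where the background was 1.06% and 1.69% of genes higher and 2.18% and 1.34% lower. The other chains stayed within 2-fold in the Agt cluster: Itgav had 62.6 CPM against 114 CPM in the other fibroblast-like cells, Itga9 39.9 against 70.0 CPM, Itgb5 130 against 202 CPM, Itgb1 413 against 554 CPM and Itga4 8.76 against 7.19 CPM. Cells with Itgb3 made up 19.7% of the Mrgprg and 2.72% of the Agt cluster, or 13.8% and 2.58% when thinned. Spp1 was 7.58 CPM in the Nrep cluster and at most 2.34 CPM in the other 3.

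**Figure D5:**
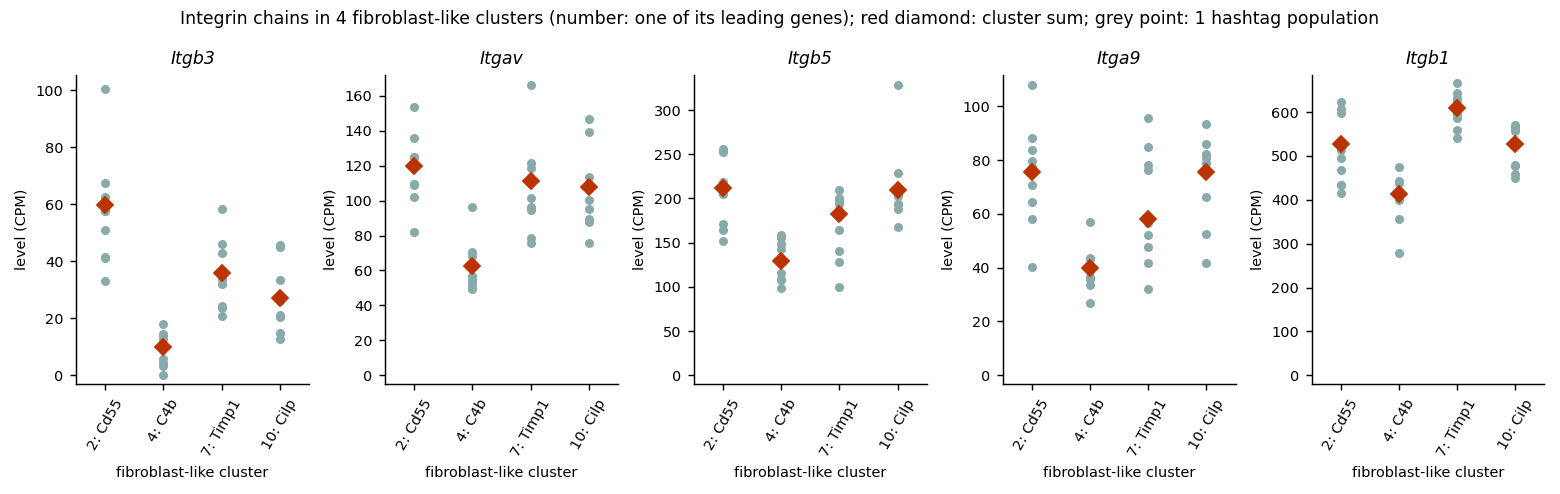
Level (CPM) of Itgb3, Itgav, Itgb5, Itga9 and Itgb1 in 4 fibroblast-like clusters, named by number and a leading gene; red diamonds are cluster sums and grey points the 9 hashtag populations. For Itgb3 the points of cluster 2 (Mrgprg, Cd55; 32.9 to 101 CPM) lie above those of cluster 4 (Agt, C4b; 0 to 17.8 CPM).

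Other receptors of osteopontin gave a mixed picture. Cd44, the hyaluronan receptor that also binds osteopontin, was 575 CPM in macrophage-like cells (387 to 683 CPM over 9 populations) and 112 CPM in fibroblast-like cells (71.7 to 191 CPM), a 5.16-fold difference, or 3.22-fold with its missing low values filled. Of the 4 genes in this list, 2 reached 20 CPM; Itga5, the alpha-5 chain of the fibronectin receptor, was within the 2-fold limit at 80.5 and 144 CPM. Cd44 was also called lower in the Lyve1 macrophage state, at 259 CPM, and in the Agt fibroblast cluster, at 62.3 CPM.

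Of 17 other integrin chains, 5 reached 20 CPM, of which macrophage-like cells had more of 4 and fibroblast-like cells more of 1. Itgb2, the beta chain of leukocyte integrins, was higher by 163-fold at 802 CPM in macrophage-like cells, and Itgax, its CD11c partner, by 124-fold at 379 CPM. With low values filled these became 6.89-fold and 4.07-fold. Itga11, the collagen-binding alpha-11 chain, was 55.9-fold higher in fibroblast-like cells, at 113 CPM.

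Ligands that share these receptors came mainly from fibroblast-like cells. Of 18 such genes, 16 were analysed and 12 reached 20 CPM; fibroblast-like cells had more of 10 and macrophage-like cells more of 2, with a median log2 ratio of -4.16. Ccn2, a matricellular protein linked to fibrosis, was 63.7-fold higher in fibroblast-like cells at 179 CPM (4.33-fold with low values filled), and Fbn1, the microfibril protein fibrillin-1, was 59.4-fold higher at 3201 CPM. Tgfb1, whose latent form alpha-v integrins activate, was 7.58-fold higher in macrophage-like cells at 160 CPM. Mfge8, a bridging protein for uptake of dying cells, was 2.03-fold higher there, in 6 of 9 populations. Spp1 thus differed from 10 of the 12 other ligands in the class that held more of it. Of the 4 other sialoprotein genes next to Spp1, Dmp1 was analysed here and it did not reach 20 CPM.

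Among 10 proteases and modifying enzymes that act on osteopontin, 7 reached 20 CPM, with 3 higher in macrophage-like and 2 in fibroblast-like cells. Mmp12, the macrophage elastase, was 2948 CPM in macrophage-like cells, 359-fold higher than in fibroblast-like cells, or 4.18-fold with low values filled. F10, coagulation factor X, which activates prothrombin, was 33.3-fold higher there at 67.4 CPM. Mmp2, a gelatinase, was 142-fold higher in fibroblast-like cells at 766 CPM, and Mmp3, stromelysin-1, was 89.3-fold higher at 151 CPM (10.3-fold and 3.72-fold with low values filled).

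Of 16 genes of integrin activation and adhesion signalling, which act inside the cell or beside the receptor, 12 reached 20 CPM, with 4 higher in macrophage-like and 3 in fibroblast-like cells and 5 within 2-fold. Fermt3, the kindlin of blood cells, was 37.6-fold higher in macrophage-like cells at 171 CPM, and the kinase Syk 12.8-fold at 213 CPM. Fermt2, the kindlin of adherent tissue cells, was 28.2-fold higher in fibroblast-like cells at 152 CPM, and Parva, a parvin that links integrins to actin, 35.3-fold at 137 CPM.

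Genes with the most similar pattern were found by Pearson's r of log2(CPM + 1), as a description of points that share 1 library. Over the 13 macrophage states, the 10 genes most like Spp1 among 6141 had r from 0.86 to 0.89: Kif1c, Slc25a4, Cpd, Naa80, Tbrg1, Rhoj, Pam, Abcd3, Dhx32 and Tnfaip1. Without the mixed states, over 11 states, r ran from 0.92 to 0.97, the first was Atp6v1g1, a subunit of the vacuolar proton pump, and Cpd and Naa80 were in both sets of 10. Over the 13 named classes and 12164 genes, Itgb5 was most like Rassf8 (r = 0.97), Aga (0.95) and Tmem165 (0.95). Itga4 was most like the class II gene H2-Eb1 (0.92), the interleukin-10 receptor Il10ra (0.92) and the invariant chain Cd74 (0.91). The closest genes were Gnb4 (0.92), Peli2 (0.90) and Gm49395 (0.87) for Itgb1. They were Cks1b (0.89), Tmem184c (0.88) and Fam20c (0.86), a kinase that phosphorylates secreted proteins including osteopontin, for Itgav, and Casp8ap2 (0.82), Maf (0.81) and Nmi (0.79) for Itgb3.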

How the data were processed

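The series holds a transcriptome and a hashtag library of 1 pool. The deposited tables hold whole-number counts, by gene or hashtag for each cell. The build GRCm38 and the tools cutadapt 2.10, Bowtie2 2.4.2 and R 3.6.3 are named, per the submitters' processing notes; how cells, counts and hashtags were called is not stated in the sources used here. No collapse to molecules is recorded, so the counts were treated as reads. For part of the genes the table has no low values (lowest Spp1 value 8, Cd44 7, integrin chains 1).

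Of 12040 cell columns, 12 without a hashtag call were not used; all 12028 others share their barcode with the hashtag table. They hold 617812192 reads, 5169 to 736281 per cell. Cells with under 200 genes or over 25% mitochondrial reads (1253), hashtag doublets (254) and Scrublet doublets (236, 2.19%; expected rate 0.05) were removed. The remaining 10286 cells were clustered (scanpy 1.11.5, leidenalg 0.10.2; 2000 variable genes without the 71 listed genes, 30 components, 15 neighbours, resolution 1, seed 7). Clusters were named from 23 lists of 136 markers by thresholds set after the clusters were seen. They were at least 60% of a class's markers, 15 points above any unrelated class, and at least 3 markers. A marker counted at 20 CPM or more and within 4-fold of its highest cluster. Related classes, such as T cells and natural killer cells, were exempt from the 15 points. The T cell cluster had the natural killer marker Gzma among its leading genes, so T cell-like cells may include natural killer cells. Macrophage-like cells were clustered again alone.

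Levels are summed counts as CPM. A gene was called at 2-fold (CPM + 1) with at least 20 CPM in 1 of both groups. The rule was run on simulated sums with counting error alone. These had no missing low values and no spread between cells, so they do not show how the rule handles either. A gene counted as detected at 6 reads, or at 1 read after thinning each cell to 5000 reads, which left out no cell. The members, lists and comparisons were chosen with earlier results of these data known. Named beyond the members are the 2 genes per list and direction with the highest ratio, Cd44, and the most similar genes (those of Itga9 are not reported here); genes naming states and clusters, Itga5, Dmp1, Cerkl and Gm42793 were named after their values were seen. No test over hashtag populations was run, as the labels put them in no group. Positions are from GENCODE M21 (GRCm38).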

Additional observations from a re-analysis of the deposited data

Results flagged for a closer look

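Spp1 in fibroblast-like cells of hashtag population A0310 was 23.8 CPM, far from the other 8 populations, of which the nearest was at 3.85 CPM. It came from 6 of 146 cells, and 55.0% of the reads came from 1 cell with 153 reads. The same gap measure was applied to 14 sets of 9 populations, and chance flags about 1 in 20. The populations may differ in diet and are not replicates of a group.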

How the results depend on the processing

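The counts of members called against fibroblast-like cells, 2 in each direction, stayed at 2 in macrophage-like cells under all 24 alternatives and at 2 to 3 in fibroblast-like cells. No direction of a member turned under any alternative run. The size of the Spp1 ratio, 105-fold, moved: it was 53.4 as a mean of per-cell CPM, 45.8 with cells thinned to 5000 reads, 3.23 with gaps filled, 146 with at most 10% mitochondrial reads, 120 and 92.8 at clustering resolutions 0.5 and 2, 89.7 with all variable genes, 115 with Scrublet doublets kept, 147 as a median over hashtag populations, and 82.5 to 191 when leaving out 1 population. The count of states with Spp1 lower, 7, was 11 of 21 states at subcluster resolution 2, 3 with gaps filled, and 6 to 8 when leaving out 1 population. The count with Spp1 higher, 1, was 3 with per-cell means, 3 with thinned cells, 2 of 14 states with all variable genes, 0 without the mixed states (an alternative chosen after seeing the data), and 1 to 2 when leaving out 1 population, with 2 without A0308 or without A0310. The share of macrophage-like cells with Spp1, 25.3%, was 18.8% when thinned. With hashtags called from the tag counts in place of the deposited names, the highest over the lowest Spp1 level of the 9 populations was 76.3 instead of 6.58, as A0301 kept 52 of 61 cells and its level was 7.21 instead of 130 CPM. The causes of these shifts were not tested beyond what each setting does. No test was run over the hashtag populations, paired or not, as the labels put them in no group. Depth limits the small classes: 0 of 33 mature dendritic-like cells with Itgav and Itgb3 allows a share of up to 9.09% (3 of 33 cells).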

Other observations

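An unnamed lymphocyte cluster of 238 cells, led by Klrg1, Il1rl1 and Areg with Ctla4 and Foxp3 among its leading genes, held much Itgav and Itgb3. Itgav was 207 CPM, above the 102 CPM of fibroblast-like cells, Itgb3 was 103 CPM and Itga4 225 CPM, while Itgb5 was 8.62 CPM and no Spp1 read was found. Itgav and Itgb3 occurred together in 4.20% of its cells (2.03 to 7.59), or 5.46% when thinned, against 7.18% and 3.51% in fibroblast-like cells. The leading genes belong to both type 2 innate lymphoid cells and regulatory T cells, which is why the cluster has no name. Unnamed cluster 15, of 293 cells led by Cfd and Pik3r6, had 47.7 CPM of Spp1 and 177 CPM of Itga4.

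The share of macrophage-like cells among kept cells was 7.53%, 6.28% and 8.63% in A0301, A0302 and A0303, 31.9%, 34.8% and 39.0% in A0304, A0305 and A0307, and 36.3%, 42.8% and 43.7% in A0308, A0309 and A0310. A0301 to A0303 stood apart from the other 6 populations, whose values overlapped. No source used here ties a population to a diet.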
